A study of Mus musculus with 4 samples.

Results

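The genes of the cytosolic ribosomal proteins were examined in whole mouse islets at low and high glucose. A gene was taken as a member when its row carried a RefSeq coding identifier and a symbol of the *Rps* or *Rpl* form with a number, or was *Rpsa*, *Rplp0*, *Rplp1* or *Rplp2*. Where a symbol had several rows (10 symbols), the row with the highest mean over the libraries stood for the gene. This gave 83 genes out of 33923 rows of the table, 32 of the small 40S subunit and 51 of the large 60S subunit, and *Rpl41*, *Rpl22* and the paralogues named like a subunit gene were counted among them.

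Islets came from adult C57bl6 male mice, 3 months old, and were made into a single pool, so the libraries do not stand for separate animals. After a night at 11 mM glucose and 2 h at 2.8 mM, they were kept at 2.8 mM (LoGlu, 2 libraries) or 16.8 mM glucose (HiGlu, 2 libraries). The series design gives this step 12 h in either group. On the labels of single samples, however, LoGlu islets had 2 h and HiGlu islets 12 h, and if these hold, glucose and time cannot be told apart. The labels call the cell type mixed, and each value is an average over beta, alpha, delta and other islet cells, in which fewer cells of a type and less RNA per cell cannot be told apart.

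The cytosolic ribosome joins a 40S subunit, which reads the mRNA, to a 60S subunit, which forms the peptide bond and holds the exit tunnel. Its proteins are encoded by single genes scattered over the genome that are expressed together in nearly every cell, and many of these genes have left intron-less copies in the genome. Ribosomal protein mRNAs begin with a run of pyrimidines at the cap, the terminal oligopyrimidine (TOP) motif, through which the kinase mTOR and the protein LARP1 set their translation and stability. In islets these genes serve cells that devote much of their protein synthesis to insulin.

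Stretches around the annotated start of the transcript are shown for 6 of the members whose annotated start lies in a run of C and T. RefSeq promoters were given for 63 of the 83 members (60 of those tested). Each stretch runs 5′ to 3′ on the gene's own strand, from 40 bases before the annotated start to 19 after it, in the GRCm38.p6 build, and capitals mark the unbroken run of C and T that holds the start. The genes are *Rps18* (chr17:33955646-33955705, minus strand), *Rps27* (chr3:90213629-90213688, minus), *Rps6* (chr4:86857348-86857407, minus), *Rpl35a* (chr16:33056442-33056501, plus), *Rpl28* (chr7:4792925-4792984, plus) and *Rpl38* (chr11:114668540-114668599, plus).
Rps18: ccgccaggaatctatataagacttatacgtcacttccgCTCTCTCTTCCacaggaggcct
Rps27: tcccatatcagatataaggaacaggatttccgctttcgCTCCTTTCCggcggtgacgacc
Rps6: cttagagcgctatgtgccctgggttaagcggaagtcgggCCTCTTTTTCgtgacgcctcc
Rpl35a: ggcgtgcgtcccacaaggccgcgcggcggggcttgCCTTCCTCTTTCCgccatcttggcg
Rpl28: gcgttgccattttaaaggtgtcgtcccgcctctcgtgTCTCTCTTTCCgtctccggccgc
Rpl38: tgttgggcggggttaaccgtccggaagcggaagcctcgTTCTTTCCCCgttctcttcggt

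A start within a run of at least 5 C or T was found in 20 of 71 promoters of tested members (28.2%) and in 10.1% of all 32851 promoters. The runs at the start of these 20 promoters were 5 to 21 bases long. The letters CTTCCG or their reverse CGGAAG, the core bound by ETS factors, were in 62.0% of the members' promoters against 16.9% of all promoters of the same 300 bases. AAGATGGCG, on either strand, the sequence bound by YY1, was in 8.45% against 1.40%, and TATAAA, on either strand, in 9.86% against 13.6%. The motifs searched can share letters, since CGGAAG ends in the AAG that opens AAGATGGCG, and the CTTCC of a CTTCCG may lie inside a run of C and T. Their shares are therefore not independent of each other. An annotated start can lie some bases away from the one in use, so a missing run says only that these letters are not at the annotated base. By gene, 20 of 60 members had such a run, and their median log2 fold change at 16.8 mM was -0.20, against -0.27 in the 40 members without one. Of the genes called lower below, 2 had the run and 3 did not.

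The deposited values are RPKM, reads per kilobase and scaled to the reads of the library. Low values of the table step in whole reads when each transcript's length is taken from its first to its last base with introns counted, at depths of 50801597 to 60709345 reads per library. For 52 members the span could be recovered, and their reads per library had a lowest value of 9, in *Rpl3l*, and a highest of 25910, in *Rpl10*. Those 52 genes took 0.976% and 0.850% of all reads in the 2.8 mM libraries and 0.782% and 0.721% in the 16.8 mM libraries, both lower than either 2.8 mM library. The median member of these had 6155 reads in its lowest library, so that counting error was small beside the spread between libraries.

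Levels were compared between genes per exon length, which was possible for the 45 members above 1 RPKM whose span and transcript matched. *Rplp1*, one of the acidic proteins of the stalk that recruits elongation factors, had the highest level, at 564 and 474 RPKM per exon length in the 2.8 mM libraries and 506 and 456 in the 16.8 mM libraries. *Rpl10*, which is added last to the 60S subunit and helps to release an assembly factor, followed at 555 and 504 against 422 and 396. *Rpl32*, *Rps23* and *Rpl13a* lay between means of 331 and 346. Reads in the rows of small nucleolar RNAs within introns equalled 10.2% to 11.4% of those of *Rpl32* and 15.3% to 16.6% of those of *Rpl13a*. Whether reads within introns enter these levels, and so the order of genes, was not tested. Without the paralogue *Rpl7l1*, the quartiles were 142 and 272 RPKM per exon length over 44 genes, with a ratio of 1.91 between them. At the lower end stood *Rpl7l1* at 13.4, *Rpl21* at 16.7 and *Rpl29* at 29.5, all means over the 4 libraries. The exon lengths used for these genes were 2606, 1856 and 710 bases, against coding sequences of 741, 483 and 483 bases. A longer exon length gives a lower value on this scale. *Rpl21* and *Rpl29* are also among the members with the most copies elsewhere in the genome. Every stretch of 50 bases of the *Rpl21* coding sequence recurred elsewhere, in 91 places, and 90.3% of those of *Rpl29*, in 92 places. The part of such copies, or of the exon lengths used, in the low levels was not tested.

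**Figure D1:**
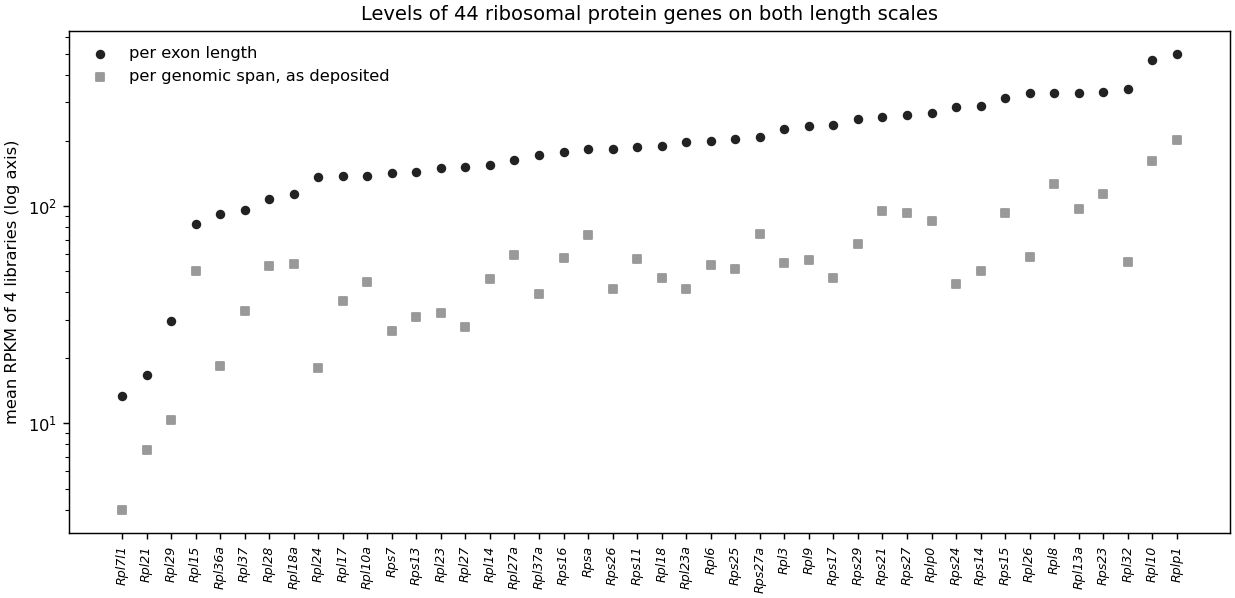
Mean RPKM of the 4 libraries (log axis) for 44 of the 45 genes, *Rpl7l1* included, per exon length (circles) and per genomic span as deposited (squares), ordered by the former. Per exon length, *Rplp1* and *Rpl10* lie at the top and *Rpl7l1*, *Rpl21* and *Rpl29* below 30 RPKM.

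The deposited RPKM per genomic span depend on intron length and give no order of levels between genes, and served here only to choose genes to name. The largest values were those of *Rpl41*, *Rplp1*, *Rpl10*, *Rpl8* and *Rps23*, and the smallest those of *Rpl10l*, *Rpl39l*, *Rpl3l*, *Rpl7l1* and *Rpl21*. *Rpl41* encodes the smallest protein of the ribosome, a short basic peptide, and measured 370 and 324 RPKM at 2.8 mM and 384 and 363 at 16.8 mM. *Rpl10l*, a copy of *Rpl10* used in the testis, was listed at 0 in all 4 libraries. *Rpl39l*, another testis form, was listed between 0 and 0.0123 RPKM, and *Rpl3l*, the muscle form of *Rpl3*, between 0.0444 and 0.0761 RPKM with 9 reads in the first 2.8 mM library and 12 in the second 16.8 mM library. These 3 paralogues lay under the minimum mean of 1 RPKM and were not tested, and the other 80 members were.

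Glucose was compared with limma on log2(RPKM + 0.5), with Benjamini-Hochberg adjustment over 7867 transcripts and a threshold of 0.05. Calls named below as on the deposited scale are those of this main fit, unless another fit is named. At 16.8 mM glucose, 9 of the 80 members tested were called lower (11.3%) and 0 were called higher. Over all transcripts tested, 22.8% were called lower and 10.7% higher, so the share of members called lower was under the background. At an unadjusted limma p under 0.05, 29 members were lower and 0 higher. The share of all transcripts at that unadjusted threshold is not given here, so this count has no background. The direction was nonetheless nearly uniform, since 78 of 80 members had a negative log2 fold change, as did 65.2% of all transcripts. The median log2 fold change of the members was -0.30 (a level 0.815 times that at 2.8 mM), with quartiles of -0.35 and -0.16, and that of all transcripts was -0.11. The members' standard errors lay between 0.10 and 0.15 with a median of 0.14, against a median of 0.10 over all transcripts, and the smallest change among the members called was 0.40 on the log2 scale.

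**Figure D2:**
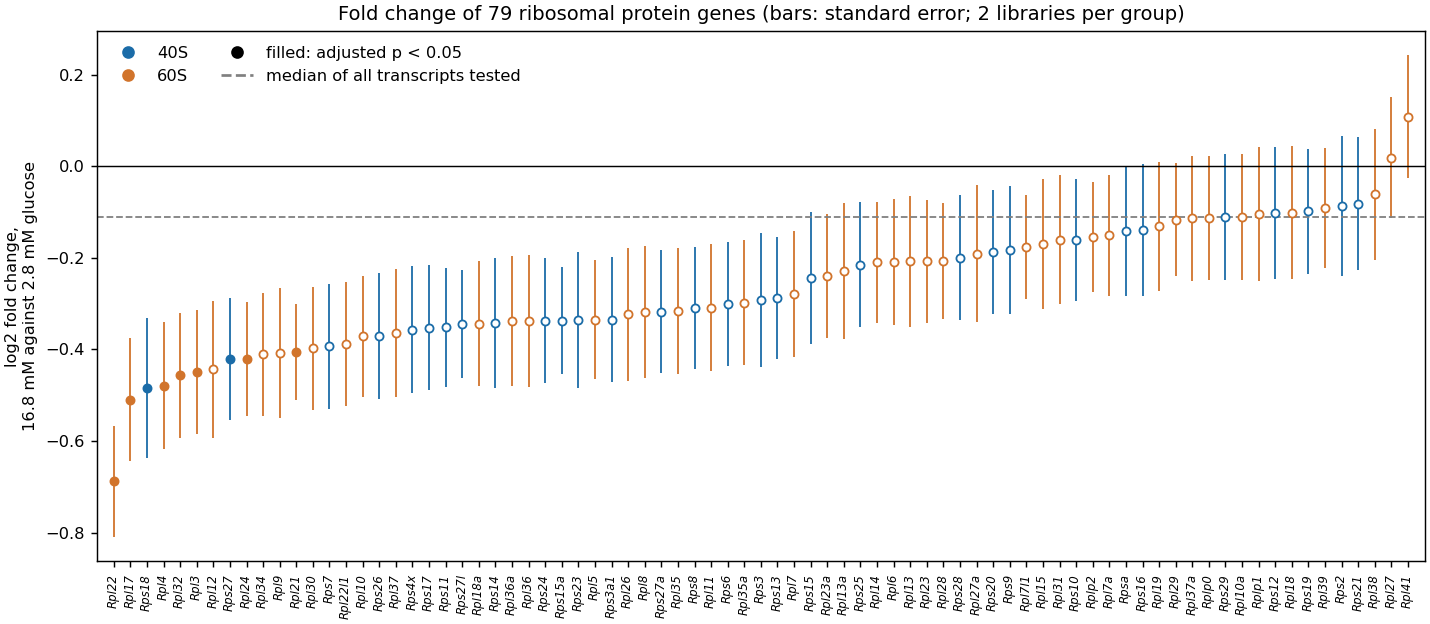
Log2 fold change at 16.8 mM against 2.8 mM glucose on the log2(RPKM + 0.5) scale for 79 of the 80 members tested, with its standard error (2 libraries per group). Filled points mark the 9 members with an adjusted p under 0.05, the dashed line is the median of all transcripts tested (-0.11), and on this scale only *Rpl27* and *Rpl41* lie above 0.

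The libraries of a group also differed from each other. The first 2.8 mM library was the highest of the 4 for 79 of 80 members, against 56.2% of all transcripts, and the second 16.8 mM library was the lowest for 75. Replicate 1 lay above replicate 2 in both groups for 79 members (98.8%), against 74.3% of all transcripts. Between the 2.8 mM libraries the members' median difference was 0.21 on the log2 scale, against 0.09 for all transcripts. Between the 16.8 mM libraries it was 0.11, against 0.10. For 59 members the order ran from the first to the second 2.8 mM library and on to the first and second 16.8 mM library. Both 16.8 mM libraries lay below both 2.8 mM libraries for 60 of 80 members, where 48.3% of all transcripts did so, and no tested member showed the opposite, as 22.2% of all transcripts did.

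**Figure D3:**
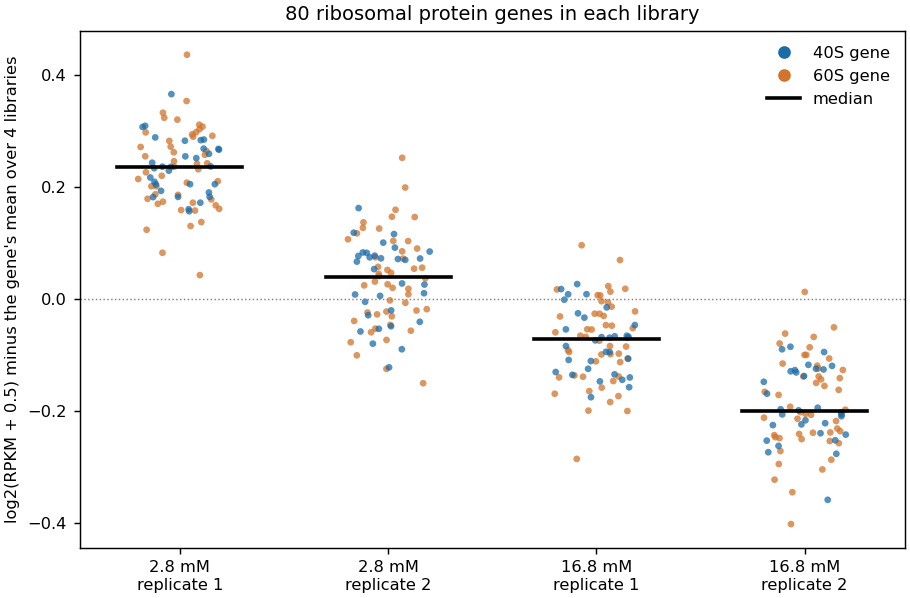
Each point is 1 of 80 members in 1 library, as log2(RPKM + 0.5) minus that gene's mean over the 4 libraries, and bars are medians over members. The medians step down from 0.24 and 0.04 in the 2.8 mM libraries to -0.07 and -0.20 in the 16.8 mM libraries.

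The count of members called moved when a library was left out, and the count over all transcripts moved in these fits as well. Leaving out a library also leaves its group without a replicate. With all libraries kept, the members' count moved too, under other scalings, without the variance trend and with no minimum RPKM. What set the count was not tested. Without the first 2.8 mM library the members' median log2 fold change was -0.19, and without the second it was -0.38. Without the first or the second 16.8 mM library, the medians were -0.36 and -0.22. The same sign of the median was kept in each of these fits.

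The summed level of 7 beta cell markers (*Ins1*, *Ins2*, *Iapp*, *Ucn3*, *Mafa*, *Slc2a2* and *Nkx6-1*) was higher at 16.8 mM. It went from 22909 and 20560 RPKM at 2.8 mM to 43719 and 40946 at 16.8 mM. A sum follows its most abundant genes, and it does not show which of the markers rose. Because RPKM shares out the reads of a library, a gene can fall when others rise. With the 10 transcripts of highest RPKM taken out of the library size, the members' median was -0.21 and 28 were called lower (35.0%, against 26.4% of all transcripts) and 0 higher (19.6%). Centring each library on its median also gave a median of -0.21, with 31 called lower (38.8%, against 26.7%) and 0 higher (21.1%). Quantile normalization gave -0.27, with 33 called lower (41.3%, against 27.4%) and 1 higher (20.0%). In the main fit on the deposited scale the members' share called lower was thus under the background, and on these 3 scales it was above it. With a replicate block on the deposited scale it was also above, at 52.5% against 36.0% of all transcripts. Without the variance trend it was 32.5%, and the share of all transcripts called lower in that fit is not given here. Of all calls in the table, 31.9% were higher on the deposited scale and 44.1% after centring. The summed delta cell markers (3 genes) went from 598 and 447 to 703 and 695 RPKM and the duct markers (4 genes) from 19.7 and 16.5 to 27.2 and 33.8. Sums of alpha cell markers (6 genes, 1538 to 2217 RPKM), of *Ppy* (729 to 1138) and of acinar markers (8 genes, 85.5 to 436) overlapped between the groups. Endothelial and stromal markers summed to at most 3.40 RPKM in any library and leukocyte markers (4 genes) to 6.92 to 10.01, with overlap. No marker in the table was at 0 in all libraries, and the part of any cell type in the members' values was not tested.

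*Rpl22* fell the most. It encodes an RNA-binding protein on the outside of the 60S subunit that is not needed for translation in general and is known for its role in the maturation of T cells. Its gene lies at chr4:151699851-151708180 (NCBI build 37, plus strand). It measured 14.2 and 12.4 RPKM at 2.8 mM and 8.42 and 7.72 RPKM at 16.8 mM, so both high glucose libraries were clearly below both others. The log2 fold change was -0.69 ± 0.12 (SE, n = 2 per group), with a limma adjusted p of 0.00654, and it remained called when any 1 library was left out. With no minimum RPKM, where more transcripts were tested, the adjusted p was 0.0545 and the call was lost.

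Its paralogue *Rpl22l1*, which can take its place in the ribosome, was not called on the deposited scale. It measured 32.4 and 27.7 RPKM against 23.6 and 22.0, a log2 fold change of -0.39 ± 0.13 with an adjusted p of 0.0634 in limma. It was called lower after median centring (adjusted p = 0.0298), quantile normalization (0.0274), rescaling without the 10 transcripts of highest RPKM (0.0340), without the variance trend (0.0365) and with at least 1 RPKM in every library (0.0345). The paralogue made up 69.5% and 69.0% of the summed RPKM of the pair at 2.8 mM and 73.7% and 74.0% at 16.8 mM, on the scale per genomic span. With 2 libraries against 2, an exact permutation test could not go below a two-sided p of 0.333, so this shift is given as a description.

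The other genes called lower were *Rpl17*, *Rpl4*, *Rpl32*, *Rpl3*, *Rpl24* and *Rpl21* of the 60S subunit and *Rps18* and *Rps27* of the 40S subunit. *Rpl17*, whose protein lies at the exit of the peptide tunnel, went from 44.8 and 41.4 RPKM to 32.05 and 28.2, a log2 fold change of -0.51 ± 0.13 (adjusted p = 0.0264, limma). *Rps18*, of the head of the small subunit, went from 54.1 and 45.5 to 38.3 and 32.5 RPKM, which gave -0.48 ± 0.15 (adjusted p = 0.0477). *Rpl4*, which lines the exit tunnel, went from 140 and 123 to 97.5 and 90.3 RPKM, or -0.48 ± 0.14 (adjusted p = 0.0359). In none of these genes did the groups overlap, yet the 2.8 mM replicates of *Rps18* differed by more than the gap between its nearest high and low glucose libraries.

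*Rpl32* measured 68.3 and 60.1 RPKM at 2.8 mM and 48.5 and 44.7 at 16.8 mM. Its gene hosts the small nucleolar RNA *Snora7a* in an intron, whose own row had reads equal to 10.2% to 11.4% of those of the *Rpl32* row. Whether reads of such intronic RNAs were also counted for the host gene was not tested. *Rpl3*, which helps to shape the peptidyl transferase centre, measured 67.6 and 58.8 against 46.9 and 45.3 RPKM. *Rps27*, a zinc-binding protein at the solvent side of the 40S subunit, measured 110 and 103 against 82.8 and 75.5 RPKM. *Rpl24*, which forms a bridge to the small subunit, measured 21.8 and 19.4 against 15.6 and 14.8 RPKM, and the much copied *Rpl21* 8.88 and 8.34 against 6.39 and 6.36. Log2 fold changes of these 5 genes lay between -0.46 and -0.40, with limma adjusted p-values of 0.0251 to 0.0477. All had both high glucose libraries below both low glucose libraries. With no minimum RPKM, *Rpl21* was the only member still called. Just outside the threshold, *Rpl34* (-0.41, adjusted p = 0.0533) and *Rpl12* (-0.44, adjusted p = 0.0585) were not called on the deposited scale but had adjusted p-values of 0.0230 and 0.0350 after median centring.

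By subunit, 2 of 32 genes of the 40S subunit and 7 of 48 tested genes of the 60S subunit were called lower on the deposited scale (6.25% and 14.6%, both under the background of 22.8%). After median centring, 15 of 32 and 16 of 48 were called lower, a larger share in the 40S subunit. Both shares were then above the background of 26.7% on that scale. The medians were -0.31 and -0.26 on the log2 scale, and all 32 genes of the 40S subunit had a negative fold change, the weakest being *Rps21* at -0.08, which turned to 0.0023 after median centring. The difference between subunits was not tested.

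*Rps6* encodes the substrate of the S6 kinases, and the level of its mRNA is not a readout of mTOR activity. The gene measured 114 and 103 RPKM at 2.8 mM and 91.3 and 84.4 RPKM at 16.8 mM. Its groups did not overlap, but the log2 fold change of -0.30 ± 0.14 was not called (limma adjusted p = 0.127, 95% interval from -0.62 to 0.019), although it was after median centring (adjusted p = 0.0497). *Rps19*, the gene most often mutated in Diamond-Blackfan anaemia, measured 25.4 and 21.8 against 23.2 and 20.8 RPKM with overlapping groups, and its change of -0.10 ± 0.14 became 0.0091 without the first 2.8 mM library. *Rpsa*, whose protein was first described as a laminin receptor, measured 83.4 and 71.4 against 72.7 and 67.3 RPKM, again with overlap (-0.14 ± 0.14). *Rps4x* is the X-linked gene of its protein and measured 88.5 and 76.3 against 65.5 and 62.7 RPKM (-0.36 ± 0.14, adjusted p = 0.0865 in limma), and it was called after median centring (0.0431) and quantile normalization (0.0285).

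The stalk of the 60S subunit is made by *Rplp0*, *Rplp1*, *Rplp2* and, at its base, *Rpl12*. None of the 4 was called on the deposited scale, and the median log2 fold change was -0.13. *Rpl12* (78.2 and 65.1 against 55.5 and 49.4 RPKM) stood apart from the stalk proteins proper. *Rplp0*, often used as a reference gene in PCR, measured 93.8 and 83.8 against 84.8 and 79.1 RPKM, a change of -0.11 ± 0.14 with overlap of the groups. *Rplp1* measured 227 and 191 against 204 and 184 RPKM, with overlap, and its change of -0.10 ± 0.15 turned to 0.033 under quantile normalization and to 0.021 without the first 2.8 mM library. *Rplp2* measured 23.3 and 21.8 against 20.5 and 19.8 RPKM, without overlap (-0.15 ± 0.12).

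*Rpl5* and *Rpl11* travel with the 5S RNA as a particle that can bind MDM2 and so stabilise p53. *Rpl5* measured 36.7 and 33.5 RPKM at 2.8 mM and 29.1 and 26.4 at 16.8 mM, and *Rpl11* 61.0 and 52.8 against 47.7 and 43.8. The groups of both genes lay apart, with log2 fold changes of -0.34 ± 0.13 and -0.31 ± 0.14 that were not called on the deposited scale (adjusted p = 0.0874 and 0.126, limma). *Rpl5* was called lower after median centring (adjusted p = 0.0278), quantile normalization (0.0186), rescaling without the 10 transcripts of highest RPKM (0.0361) and without the variance trend (0.0449). Among genes by which the cell senses free ribosomal proteins, 2 of 6 tested were called lower and 1 higher, where 22.8% and 10.7% of all transcripts were. *Trp53* and *Mdm4* were called lower at -0.43 and -0.39, and the p53 target *Cdkn1a*, an inhibitor of the cell cycle, was called higher, with 6.77 and 7.16 RPKM against 11.2 and 9.52.

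Other named members gave the following values. *Rpl10* measured 191 and 174 RPKM per genomic span at 2.8 mM and 145 and 136 at 16.8 mM (-0.37 ± 0.13, adjusted p = 0.0686 in limma), with no overlap. *Rpl13a*, known from its release from the ribosome in interferon-treated monocytes, measured 114 and 96.1 against 94.8 and 83.9 RPKM (-0.23 ± 0.15), and reads in the rows of its 4 intronic small nucleolar RNAs summed to at most 16.6% of its own in a library. *Rpl8* measured 151 and 130 against 119 and 106 RPKM (-0.32 ± 0.14), and *Rps23*, of the decoding site of the 40S subunit, 137 and 117 against 107 and 93.6 (-0.34 ± 0.15). All of these had groups that lay apart, and none was called on the deposited scale. *Rpl10* was called lower after median centring (adjusted p = 0.0240), quantile normalization (0.0303), rescaling without the 10 transcripts of highest RPKM (0.0268) and without the variance trend (0.0301), and *Rpl8* and *Rps23* under quantile normalization (0.0314 and 0.0284). *Rpl39*, a small protein of the exit tunnel, measured 35.9 and 31.9 against 32.7 and 30.8 RPKM, with overlap (-0.09 ± 0.13).

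On the deposited scale only *Rpl27* (0.02 ± 0.13) and *Rpl41* (0.11 ± 0.13) had a fold change above 0, and after median centring 76 of 80 members stayed below it, with *Rps21* and *Rpl38* added to those above. *Rpl27* measured 29.2 and 25.7 RPKM at 2.8 mM and 28.9 and 26.6 at 16.8 mM, so its groups overlapped. *Rpl41* was not called on the deposited scale, but under quantile normalization its log2 fold change was 0.51 with an adjusted p of 0.0101 in limma, the only member called higher in any fit.

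Of the further paralogues, *Rps27l* and *Rpl7l1* were tested. *Rps27l*, a form of *Rps27* that is induced by p53, measured 12.2 and 10.7 RPKM at 2.8 mM and 8.87 and 8.92 at 16.8 mM (-0.34 ± 0.12, adjusted p = 0.0614, limma). *Rpl7l1*, a relative of *Rpl7* in the nucleolus, measured 4.48 and 4.02 against 4.02 and 3.41 RPKM (-0.18 ± 0.11), and *Rpl7* itself 92.8 and 80.4 against 72.4 and 69.8 (-0.28 ± 0.14). None of these 3 was called on the deposited scale, and *Rps27l* was after median centring (adjusted p = 0.0431) and quantile normalization (0.0253). The share of *Rps27l* in the summed RPKM of its pair was between 9.43% and 10.6% in the 4 libraries, and that of *Rpl7l1* between 4.61% and 5.26%, with overlap between the groups in both.

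Some ribosomal proteins are made as fusions to ubiquitin or a ubiquitin-like protein. *Rps27a* (87.6 and 77.8 RPKM at 2.8 mM, 68.4 and 64.0 at 16.8 mM) had a log2 fold change of -0.32 ± 0.14 and no overlap. *Fau*, the fusion with the protein of *Rps30*, measured 73.9 and 65.2 against 74.0 and 67.6 RPKM (0.03 ± 0.14), so that its groups overlapped. Neither gene was called on the deposited scale, and *Rps27a* was called lower after median centring (adjusted p = 0.0440) and quantile normalization (0.0324).

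Among other mRNAs that carry a TOP motif, 7 of 17 tested were called lower (41.2%, against 22.8% of all transcripts) and 0 higher (10.7%), with a median log2 fold change of -0.34. *Eif4b*, a helper of the initiation helicase, went from 12.4 and 11.8 RPKM to 7.33 and 6.85 (-0.73 ± 0.11, adjusted p = 0.00377, limma). *Eef2*, the factor that moves the ribosome along the mRNA, went from 247 and 232 to 149 and 144 RPKM (-0.70 ± 0.13, adjusted p = 0.00702). *Npm1*, a nucleolar chaperone, and *Eif3f*, a subunit of an initiation factor, were called lower at -0.59 and -0.54. In none of these 4 genes did the groups overlap. *Hnrnpa1* had both 16.8 mM libraries above both others (0.26 ± 0.13) but was not called.

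Of 13 genes that control ribosomal protein synthesis, 8 reached the minimum level, and 4 of these were called lower and 0 higher, where 22.8% and 10.7% of all transcripts were. *Myc*, a transcription factor that drives ribosome production, went from 3.51 and 3.24 RPKM to 1.04 and 0.93 (-1.38 ± 0.09, adjusted p = 0.000164, limma), the largest fall of any gene in the lists. *Eif4ebp1*, a repressor of cap-dependent initiation that mTOR switches off, fell by 0.43, *Tsc1*, an inhibitor of mTOR, by 0.43 and *Larp1*, which binds TOP mRNAs, by 0.35 on the log2 scale. *Mtor* itself was under the minimum, at 0.570 and 0.572 against 0.415 and 0.414 RPKM. Genes that chaperone or import ribosomal proteins were called lower in 6 of 12 tested and higher in 0 (against the same 22.8% and 10.7%), with a median of -0.32. The largest changes among them were in the importins *Ipo7* (-0.54) and *Ipo5* (-0.42), in *Grwd1* (-0.50), the chaperone of the *Rpl3* protein, and in *Pdcd2l* (-0.39).

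Mitochondrial ribosomal protein genes, which build a separate ribosome, had 15 of 61 tested called lower (24.6%, against 22.8% of all transcripts) and 1 higher (against 10.7%), with a median log2 fold change of -0.18. Translation factor genes, taken by symbol, had 14 of 52 called lower (26.9%) and 0 higher, with the same median of -0.18. This group shares genes with those above. *Eif4b*, *Eef2*, *Eif3f*, *Eif3e*, *Eef1a1* and *Eef1d*, all called lower, also count among the other TOP mRNAs, and *Eif4ebp1* among the control genes. Against the mitochondrial and translation factor genes, the cytosolic members had a lower median and, in the main fit, fewer calls for their number. After median centring, 21 of 61 mitochondrial genes were called lower and 6 higher, and 19 of 52 translation factor genes lower and 5 higher. The cytosolic members then had 31 of 80 called lower and 0 higher, so their share called lower was the largest. Over all transcripts, 26.7% were called lower and 21.1% higher on that scale. The medians of the difference between the 2.8 mM libraries were 0.13 and 0.12 for the mitochondrial and translation factor genes, smaller than the 0.21 of the cytosolic members. These differences between groups of genes are given as descriptions.

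**Figure D4:**
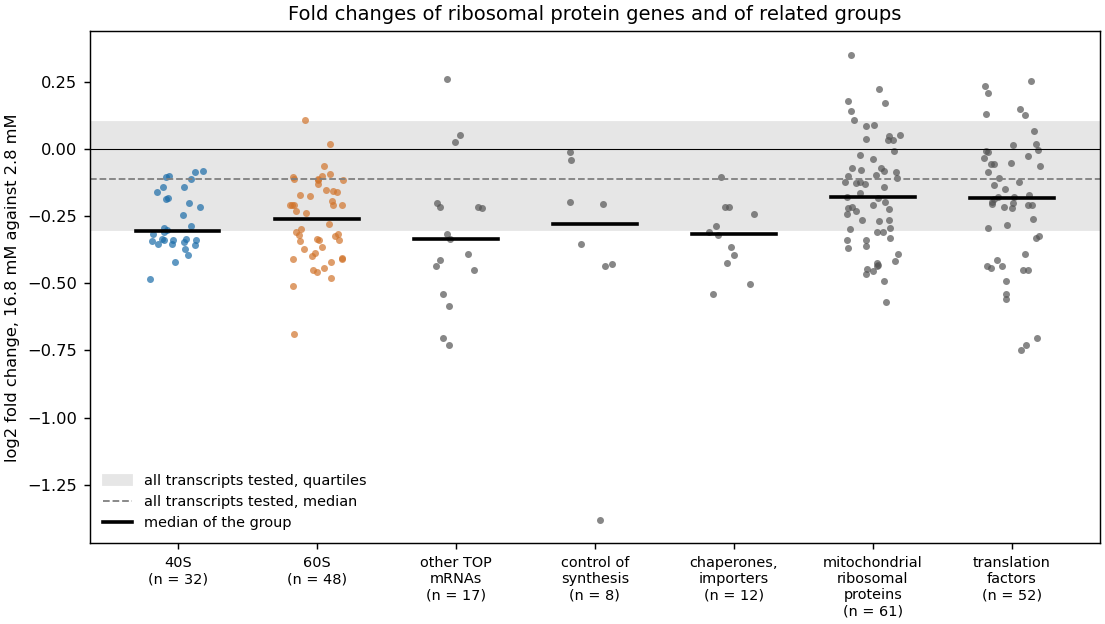
Log2 fold change at 16.8 mM against 2.8 mM glucose for the tested genes of each group, 1 point per gene, with the group's median as a bar and the quartiles and median of all transcripts tested as the grey band and dashed line. Some genes belong to more than 1 group and are drawn in each. The medians of the 40S and 60S genes are -0.31 and -0.26, and the lowest point of any group is *Myc* at -1.38.

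Within the members, the fold change varied with base composition more than with the other features examined. Over the 79 tested members with a coding sequence in the annotation, the fold change and the GC content of the coding sequence had a Spearman correlation of 0.39 (Pearson 0.37). The 39 genes with less GC, from 39.6% to 52.0%, had a median log2 fold change of -0.34 and held 8 of the 9 genes called, and the 40 genes with more GC, from 52.2% to 61.3%, had a median of -0.20 and held 1, *Rps18*. The difference between the 2.8 mM libraries also varied with GC content among members, with a Spearman correlation of 0.37. The correlations are across genes that share the same 4 libraries and have no independent replication. Over 5432 tested genes the correlation of fold change with coding GC was 0.07. Mean RPKM (0.01), coding length (-0.05) and the share of the coding sequence copied elsewhere (0.07) had weaker Spearman correlations with the members' fold changes.

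**Figure D5:**
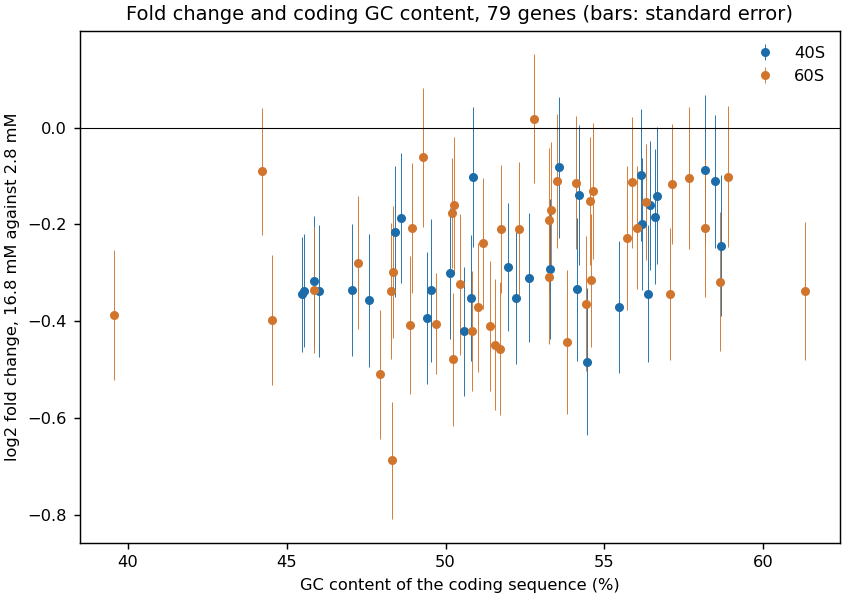
Log2 fold change at 16.8 mM against 2.8 mM glucose, with its standard error, against the GC content of the coding sequence for 79 ribosomal protein genes. Genes of lower GC content lie lower on average (Spearman 0.39), with *Rpl22* lowest at 48.3% GC, and the error bars of most genes overlap.

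Reads of intron-less copies bear on how these genes are counted. Of the 79 members, 28 had every 50-base stretch of their coding sequence repeated exactly elsewhere in the genome, and 67 had at least 50% of them repeated. The places summed to 1247, with a median of 10 and a highest number of 136, for *Rpl7a*. A read of 50 bases from such a stretch fits several places, and how such reads were counted for these libraries is not given in the sources used here. The 12 members with less than 50% of their stretches repeated had a median log2 fold change of -0.30, with all 12 below 0 and 2 called lower, and the more copied members also had a median of -0.30.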

How the data were processed

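RNA-seq of whole islets was measured in 4 libraries, 2 per glucose concentration, grouped by the sample labels. The authors deposited 1 table of RPKM values, all of whose columns of sample values were used. Per the labels, STAR, bedtools, DESeq and the mm9 build (NCBI build 37) were used; versions, strand and the treatment of reads with several places are not given in the sources used here. Low values step in whole reads over the genomic span, which gave the depths (tolerance 0.15 reads). These reads are estimates, and intervals cover the spread of these libraries only, which came from 1 pool, so p-values may measure technical spread.

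Rows of 1 gene with the same values entered the fit once. Rows whose mean reached 1 RPKM were fitted as log2(RPKM + 0.5) with limma 3.58.1 in R 4.3.3 (empirical Bayes with a trend of the variance on level, no replicate block) and adjusted by Benjamini-Hochberg. A fold change on this scale understates the change of low genes. The test was tested on simulated data. Features and figures were made with Python 3.11.15, pandas 2.3.3, numpy 2.4.6 and matplotlib 3.10.9. Gene positions, exon lengths and coding sequences come from GENCODE vM1 on NCBI build 37, with 82 of 83 members found (not *Rpl41*), and promoters from RefSeq on GRCm38.p6. Members, lists and promoter motifs were chosen with earlier results of these data known. Genes were named as the called members, the 5 highest and 5 lowest by mean RPKM, a list of members with known roles, and up to 4 of each list with the largest changes. *Rps4l* had no row among the members, and *Rpl12*, *Rpl34*, *Rpl27*, *Rps21*, *Rpl7a*, *Rpl29*, *Fau*, *Hnrnpa1* and the genes whose promoters are printed were chosen after their values were seen, where no part of this rule names them. The values of 2 genes are not reported here. Alternatives were other scalings, minimums, added RPKM, thresholds and rows, no trend, a replicate block, no paralogues, and leaving out each library.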

Additional observations from a re-analysis of the deposited data

How the results depend on the processing

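The members' median log2 fold change kept its sign in every alternative run and moved by less than the replicate spread of that median (0.12), between -0.38 and -0.19 when each library was left out. The count of members called lower moved with most choices. It was 26 without the variance trend, 33 with quantile normalization (and 1 higher), 31 with median centring and 28 rescaled without the 10 transcripts of highest RPKM. It was 18 with at least 1 RPKM in every library, 1 with no minimum, and 1 at an adjusted p under 0.01. Calls over the whole table, in both directions together, were 2628 in the main fit. They were 2554 without the variance trend, 2733 with at least 1 RPKM in every library and 2562 with no minimum. The share of all transcripts called lower in these last fits is not given here. When each library was left out, the members' count moved in both directions. With 0.1 or 1 RPKM added, with the lowest row of each gene and without the paralogues the members' count stayed at 9. The 9 genes of the main result were among those called in each fit with more calls. With no minimum, *Rpl21* was the only member called and *Rpl22* had an adjusted p of 0.0545 in limma. *Rplp1* turned to 0.033 with quantile normalization and ranged from -0.23 to 0.021 when each library was left out, and *Rps19* from -0.21 to 0.0091, the highest value of both being without the first 2.8 mM library. The cause was not tested for any of these.

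With the replicate number as a block, 42 members were called lower and 4067 transcripts of the whole table were called, against 2628 without it, and 36.0% of all transcripts were called lower. Same-numbered libraries deviated together (correlation 0.31 over 7867 transcripts), but there are only 2 numbers per group and the labels do not say that a number marks a shared batch, so the pairing is not established. Having 2 libraries in a group limits precision, and the effect of depth on precision was not tested.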
